A study of Mus musculus with 6 samples.

Results

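The genes described here are 9 members of the STAT and SOCS families, found by symbol in a table of 17352 genes from whole tumours: the transcription factors Stat2, Stat3, Stat4, Stat5a, Stat5b and Stat6, and the feedback inhibitors Socs1, Socs3 and Cish. All 9 had values in all 6 tumours and passed the filter on low values (a mean of at least 0.5 FPKM, fragments per kilobase of transcript scaled to library depth), which left 12257 genes to test. Tumours had grown for 4 weeks under the skin from implanted Panc02 cells, a mouse pancreatic cancer line. The 3 deficient tumours came from Anxa1ΔMɸ hosts, which the labels describe as lacking ANXA1 in myeloid cells, and the 3 wild-type tumours from Anxa1flox/flox hosts, whose labels read wild type. By their labelled numbers, the deficient tumours are 3, 4 and 5, against 2, 3 and 5 among wild-type tumours. All 6 titles hold the letters HFD, left unexplained there. No label names the Cre driver or the hosts' strain, sex or age. The implanted cells are not described as edited, and whole-tumour RNA mixes them with host cells.

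STAT proteins carry signals from cytokine receptors to the nucleus. Janus kinases bound to the receptor phosphorylate a STAT, which pairs with a partner STAT and binds DNA. Stat2 acts with IRF9 in the response to type I interferon, Stat3 downstream of IL-6 family cytokines and IL-10, Stat4 downstream of IL-12, Stat5a and Stat5b downstream of IL-2 family cytokines, GM-CSF and growth hormone, and Stat6 downstream of IL-4 and IL-13. Socs1, Socs3 and Cish are induced by the same signals and block them. Socs1 mainly restrains interferon gamma signalling, Socs3 signalling through the shared receptor gp130, and Cish signalling by IL-2 family cytokines. A transcript level of a STAT is not a measure of its phosphorylation, which was not assayed.

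Promoter sequences are shown because SOCS family genes are themselves targets of STATs, and they place the values that follow beside the letters that STAT complexes are known to bind. RefSeq windows (build GRCm38.p6, from 250 bases before to 50 bases after a start site, 12 windows for the 9 genes) were searched for 3 motifs on both strands. TTCNNNGAA is the general STAT motif called GAS. TTC and GAA with 4 bases between them is the spacing favoured by Stat6. GAAA, any 2 bases and GAAA is the core of the interferon-stimulated response element. The genome build behind the deposited table is not given, so these coordinates belong to RefSeq. The Cish stretch lies on the plus strand at chr9:107296654-107296683, the Socs1 stretch on the minus strand at chr16:10785582-10785641, the Socs3 stretch on the minus strand at chr11:117969486-117969545 and the Stat2 stretch on the plus strand at chr10:128270257-128270316. Capitals mark matches.
Cish: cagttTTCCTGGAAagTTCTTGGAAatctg
Socs1: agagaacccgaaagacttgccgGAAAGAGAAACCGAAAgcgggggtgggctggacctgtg
Socs3: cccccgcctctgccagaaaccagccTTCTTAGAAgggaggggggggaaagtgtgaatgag
Stat2: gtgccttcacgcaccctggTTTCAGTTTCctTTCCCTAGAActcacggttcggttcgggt

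Counting the start site as base 1, Cish had 2 GAS matches, at bases 1 to 9 and 12 to 20, and Socs3 had 1, at bases -154 to -146. Socs1 had no GAS match in its window and 2 response element cores that overlap, at bases -83 to -74 and -77 to -68. Stat2 had a response element core on the other strand at bases -222 to -213 and a TTC and GAA match with the longer spacing at -210 to -201. A second Stat4 window held a response element core at bases -97 to -88. The windows of Stat3, Stat5a, Stat5b and Stat6 held none of these letters. The Stat5b windows, chr11:100850532-100850831 and chr11:100822521-100822820 on the minus strand, lay inside the gene. The end of Stat5b that faces Stat5a, at base 100859004, lay outside them and was not searched. Of all 32851 windows of this length, 8.30% held a GAS match, 6.95% the longer spacing and 3.44% the response element core, and a match is not a measured binding site.

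Whole fragments could be recovered from the spacing of the deposited values for 16541 genes, with 36282109 to 39650881 per tumour. Anxa1 was abundant in both groups, with 249.9, 330.2 and 290.5 FPKM in deficient 3, 4 and 5 against 341.8, 354.4 and 394.2 FPKM in wild type 2, 3 and 5 (log2 fold change -0.33, limma adjusted p = 0.268). The Y-linked gene Ddx3y separated the groups, with 0.0441, 0.126 and 0 FPKM in deficient tumours, against 3.13, 5.26 and 6.79 FPKM in wild-type tumours, so what goes with Y-linked RNA and what goes with the genotype cannot be told apart. The labels do not say whether hosts shared a litter or cage, and p-values measure only the spread between these 6 tumours.

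Of the 9 genes, 0 passed an adjusted p under 0.05 over all tested genes (limma adjusted p from 0.0562 for Socs1 to 0.962 for Stat6), and 0 passed with limma's voom fit to recovered fragments. In the background, 1.21% of tested genes were called, 0.979% higher and 0.228% lower in deficient tumours. The 2 genes with an unadjusted p under 0.05 were Socs1 and Cish, both higher, a limit met by 15.1% of tested genes in either direction and by 9.86% in this one. The log2 fold change, on the scale of log2(FPKM + 1), was above 0 for 7 of the 9 genes (6 under 3 other scalings, which put Stat6 below 0) and for 54.7% of all tested genes. Its median was 0.56 for the 3 SOCS family genes and 0.12 for the 6 STATs, against 0.02 for all tested genes. Deficient and wild-type values did not overlap for 3 of the 9 genes, Socs1, Cish and Stat4, all higher in deficient tumours. Of tested genes, 20.1% had no overlap in either direction, 11.8% higher and 8.31% lower in deficient tumours. In bulk RNA, more cells of a type and more RNA per cell cannot be told apart.

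The marker counts that follow stand beside shares over all tested genes of 54.7% above 0, 0.979% called higher and 0.228% called lower. An unadjusted p under 0.05 was met by 15.1% of all tested genes, and 11.8% lay higher without overlap. Of 13 tested T and NK cell markers 12 were above 0 and 7 were called higher. The summed FPKM of the list was 78.0 to 112.1 in deficient and 34.8 to 49.5 in wild-type tumours. Of 14 macrophage and monocyte markers 13 were above 0 and 2 were called higher (sum 4215 to 7213 FPKM against 4135 to 4583). Of 11 tested adipocyte markers 10 were above 0, 0 passed and 8 had an unadjusted p under 0.05 (sum 171.3 to 665.1 FPKM against 63.6 to 184.9). The 9 fibroblast markers had 7 below 0 (sum 1816 to 3001 FPKM against 2004 to 5750), 0 passed and 3 had an unadjusted p under 0.05. Of 4 tested B cell markers 4 were above 0 (median 1.55) and 2 were called higher (sum 20.8 to 112.9 FPKM against 7.26 to 15.5, without overlap). Of 7 tumour epithelial markers 6 were above 0 (median 0.61), 0 passed, 3 had an unadjusted p under 0.05 and 3 had no overlap (sum 463.0 to 610.7 FPKM against 452.8 to 551.6). All 4 tested neutrophil markers were below 0 (median -0.16), as were all 5 tested skeletal muscle markers (median -0.37). Of 7 endothelial markers 4 were below 0 (median -0.03), and of 3 tested keratinocyte markers 2 were above 0 (median 0.10). Each of these lists had 0 calls and 0 genes with an unadjusted p under 0.05. None of the listed markers in the table was at 0 in every tumour. What part these cells had in the values of Socs1, Cish, Stat4 or the target lists was not tested.

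**Figure D1:**
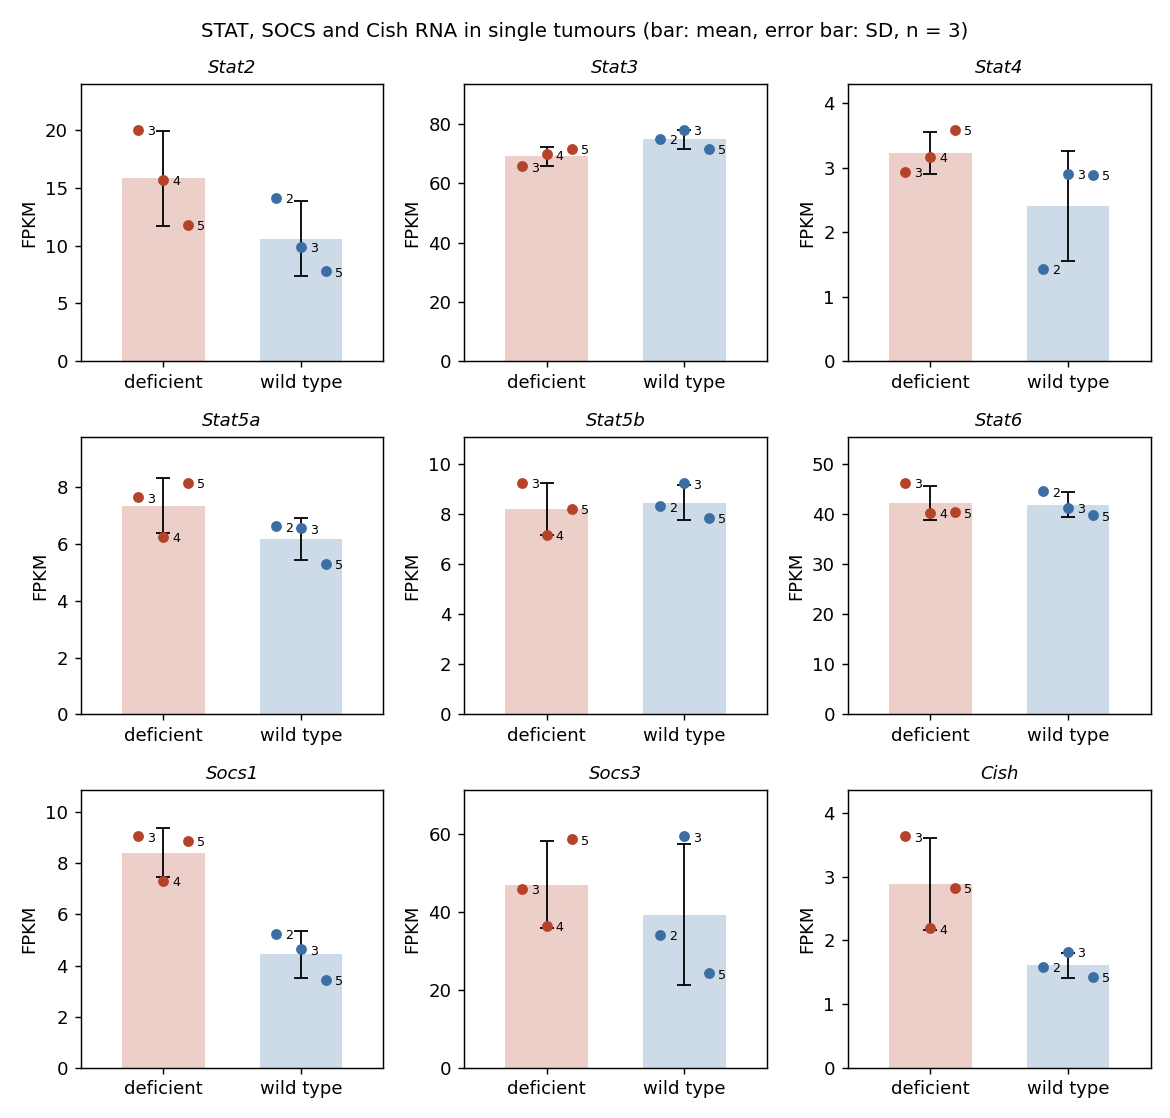
FPKM (vertical axes, from 0) of the 9 genes in each deficient (red) and wild-type (blue) tumour, with the tumour number beside each point, the group mean as a bar and the SD as an error bar (n = 3 each). The groups separate for Socs1 and Cish, barely for Stat4, and overlap for the other 6 genes.

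Levels can be compared between genes because FPKM is per length. Stat3 was the most abundant, with a mean over the 6 tumours of 71.9 FPKM, and lay above Socs3 in 6 of 6 tumours. Socs3 at 43.2 and Stat6 at 42.1 FPKM were not separated: Socs3 was above Stat6 in only 2 of 6 tumours. Stat2 (13.2 FPKM) was above Stat5b (8.34) in 5 of 6 tumours, and Stat5b was above Stat5a (6.75) in 6 of 6, although their ranges overlapped. Stat5a and Socs1 (6.43 FPKM) changed places between the groups, with Stat5a above Socs1 in 3 of 6 tumours. Stat4 (2.82 FPKM) and Cish (2.25) had the lowest levels.

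Socs1 had the largest log2 fold change of the 9 genes. It stood at 9.06, 7.32 and 8.89 FPKM in deficient 3, 4 and 5, against 5.23, 4.64 and 3.43 FPKM in wild type 2, 3 and 5, from 179 to 455 fragments per tumour. Every deficient tumour lay above every wild-type tumour, and the gap between the closest tumours was wider than either group's SD. The group means were 8.43 ± 0.960 and 4.44 ± 0.918 FPKM (SD, n = 3), a ratio of 1.90. The log2 fold change was 0.80 (SE 0.15, 95% interval 0.46 to 1.15), just short of a call (limma adjusted p = 0.0562). Without deficient 4, the lowest of its group, Socs1 passed (0.0419), and over all alternatives its adjusted p ran from 0.00809 to 0.206. The lower end came from a block on replicate number, although the labels pair no tumours.

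Cish had 3.63, 2.19 and 2.83 FPKM in deficient 3, 4 and 5, against 1.59, 1.82 and 1.42 FPKM in wild type 2, 3 and 5. The groups did not overlap, and the deficient tumours were spread more widely than the wild-type tumours. The means were 2.88 ± 0.724 and 1.61 ± 0.197 FPKM (SD, n = 3), a ratio of 1.79, from 193 to 474 fragments per tumour. The log2 fold change of 0.56 (SE 0.15, 95% interval 0.20 to 0.92) did not pass (limma adjusted p = 0.154). The pseudocount of 1 shrinks it: with 0.1 it was 0.78 (limma adjusted p = 0.153). Over all alternatives its adjusted p ran from 0.0396 to 0.353. The lower end came from a block on replicate number, although the labels pair no tumours. Otherwise the lowest was 0.0576, without deficient 4.

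Socs3 showed no separation of the groups. Deficient 3, 4 and 5 had 46.0, 36.5 and 58.7 FPKM, against 34.2, 59.5 and 24.2 FPKM in wild type 2, 3 and 5. Wild type 3 held the highest and wild type 5 the lowest of all 6 values, so that the wild-type range enclosed the deficient one. The log2 fold change was 0.32 (SE 0.31, limma adjusted p = 0.670), and its interval from -0.39 to 1.04 does not show that the groups were alike. Without wild type 3 it was 0.66 and without deficient 4 it was 0.49, against 0.15 without deficient 5 and 0.033 without wild type 5.

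Stat2 had 20.0, 15.7 and 11.8 FPKM in deficient 3, 4 and 5, against 14.1, 9.90 and 7.78 FPKM in wild type 2, 3 and 5. Wild type 2 lay above deficient 5, and the groups overlapped by these 2 tumours. The means were 15.8 ± 4.11 and 10.6 ± 3.22 FPKM (SD, n = 3), with a log2 fold change of 0.54 (SE 0.23, 95% interval -0.003 to 1.09, limma adjusted p = 0.333). Leaving out wild type 5 brought it to 0.36, and leaving out deficient 3 to 0.37.

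Stat3 and Stat6 were the steadiest of the 9 genes, with coefficients of variation over all 6 tumours of 5.92% and 6.34%. Stat3 had 65.6, 69.7 and 71.7 FPKM in deficient 3, 4 and 5, against 75.0, 77.9 and 71.5 FPKM in wild type 2, 3 and 5. Deficient 5 and wild type 5 were almost equal and closed the gap between the groups. The log2 fold change was -0.12 (SE 0.08, 95% interval -0.30 to 0.07, limma adjusted p = 0.530), and -0.18 with quantile normalization. Stat6 had 46.3, 40.4 and 40.4 FPKM in deficient tumours, against 44.6, 41.3 and 39.8 FPKM in wild-type tumours. Its log2 fold change was 0.01 (SE 0.09, limma adjusted p = 0.962), and its 95% interval of -0.19 to 0.22 ends at 1.17-fold higher on the scale of FPKM + 1. The sign for Stat6 turned under other scalings (-0.039 with equal column totals) and without deficient 3 (-0.050) or wild type 5 (-0.022).

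Stat4, a factor of T and NK cells, had 2.94, 3.16 and 3.58 FPKM in deficient 3, 4 and 5, against 1.43, 2.91 and 2.89 FPKM in wild type 2, 3 and 5. The groups did not overlap, but deficient 3 lay barely above wild type 3, and these values rest on 353 and 363 fragments. Wild type 2 stood apart at 181 fragments (counting error 7.43%). The log2 fold change was 0.34 (SE 0.19, 95% interval -0.11 to 0.79, limma adjusted p = 0.458), and 0.11 without wild type 2.

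Stat5a and Stat5b, near-identical factors, lie head to head on chromosome 11 (RefSeq, GRCm38.p6) with 0.347 kb between them, and Stat3 lies 1.64 kb beyond Stat5a. Stat5a had 7.63, 6.25 and 8.13 FPKM in deficient 3, 4 and 5, against 6.61, 6.55 and 5.30 FPKM in wild type 2, 3 and 5. Its log2 fold change was 0.22 (SE 0.13, 95% interval -0.08 to 0.51, limma adjusted p = 0.466), and 0.13 without wild type 5. The groups overlapped, because deficient 4 had less than 2 of the wild-type tumours. Stat5b had 9.24, 7.18 and 8.22 FPKM in deficient tumours, against 8.32, 9.23 and 7.85 FPKM in wild-type tumours. Its log2 fold change of -0.042 (SE 0.11, 95% interval -0.31 to 0.22, limma adjusted p = 0.897) turned positive without deficient 4 (0.041) or wild type 3 (0.015). Deficient tumours held both the highest and the lowest of its 6 values. Reads may be split between these genes: 15.8% of all 50-base stretches of the longest Stat5a transcript in GENCODE M21 also occur in Stat5b, and 4.68% of its 150-base stretches.

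**Figure D2:**
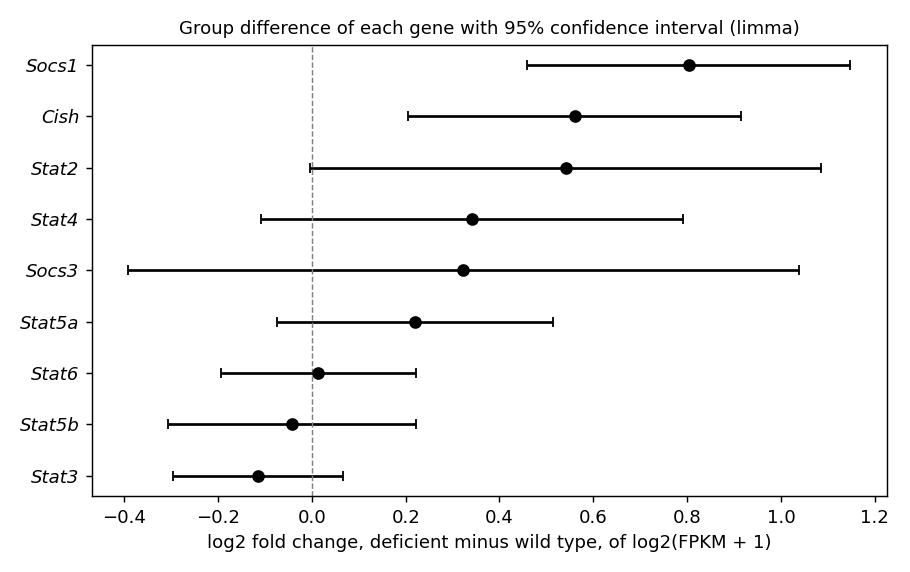
Log2 fold change (horizontal axis, deficient minus wild type, of log2(FPKM + 1)) of the 9 genes, ordered by size, as points with 95% confidence intervals from limma. The intervals of Socs1 (0.46 to 1.15) and Cish (0.20 to 0.92) lie above 0 before adjustment over all genes, and that of Socs3 is the widest.

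Of 18 cytokine ligands 10 could be tested, 8 had a log2 fold change above 0 and 1 was called higher, Ifng, the activator of the interferon gamma pathway. Ifng had 1.54, 0.845 and 1.47 FPKM in deficient 3, 4 and 5, against 0.335, 0.149 and 0.0212 FPKM in wild type 2, 3 and 5, from 1 to 70 fragments per tumour. It rose by a log2 fold change of 0.96 (SE 0.17, limma adjusted p = 0.0466). This call was kept without deficient 4 (0.0199) and lost without each of the other 5 tumours (0.0574 without wild type 2 to 0.198 without wild type 3). Its size depended on the pseudocount, with 2.51 at a pseudocount of 0.1 (adjusted p = 0.0702) and 3.36 in the voom fit (adjusted p = 0.111), neither of them a call. Of 28 tested receptor chains 20 were above 0 and 2 were called higher: Il2rb, a chain of the IL-2 and IL-15 receptors, and Il12rb1, a chain of the IL-12 receptor. Il2rb had 8.02, 5.79 and 7.19 FPKM in deficient 3, 4 and 5, against 2.75, 2.68 and 3.72 FPKM in wild type 2, 3 and 5. Il12rb1 had 3.50, 2.04 and 3.90 FPKM in deficient tumours, against 1.13, 0.910 and 0.648 FPKM in wild-type tumours. The groups did not overlap for either gene. Their log2 fold changes were 0.98 (SE 0.15, limma adjusted p = 0.0344) and 1.11 (SE 0.20, limma adjusted p = 0.0480), and both calls were lost without each tumour other than deficient 4 (adjusted p from 0.0503 to 0.167 and from 0.0676 to 0.196). The calls of all 3 were also lost with no filter on low values (adjusted p of 0.120, 0.120 and 0.151) and with equal column totals (0.0592, 0.0574 and 0.0620). Quantile normalization ended the calls of Ifng (0.0817) and Il12rb1 (0.0729). Il12rb1 also lost its call with median-ratio scaling (0.0508), without the variance trend (0.0503) and in the voom fit (0.0770), and its log2 fold change was 1.68 at a pseudocount of 0.1 and 1.78 with voom. The medians were 0.38 for ligands and 0.22 for receptor chains. Over all tested genes, 54.7% were above 0, 0.979% were called higher and 11.8% lay higher without overlap.

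The kinases and the other inhibitors gave 0 calls in limma's fit. The 4 Janus kinases had log2 fold changes above 0 (median 0.18), beside 54.7% of all tested genes, with an unadjusted p under 0.05 for 1. Jak2, which serves the interferon gamma receptor, had 16.1, 17.1 and 17.1 FPKM in deficient 3, 4 and 5, against 13.7, 14.3 and 14.1 FPKM in wild type 2, 3 and 5, without overlap (log2 fold change 0.24, SE 0.08, limma adjusted p = 0.209). Tyk2, a kinase of the type I interferon receptor, was at 0.29 (adjusted p = 0.397), and at 0.15 without deficient 3. Among the 5 other SOCS genes, 2 were above 0 and 3 below (median -0.03) and 0 had an unadjusted p under 0.05, with Socs5 at 0.10 (limma adjusted p = 0.703). Leaving out 1 tumour gave Socs5 0.027 without deficient 3, 0.044 without wild type 5 and 0.16 without deficient 4. Socs7 was at -0.21 (SE 0.09, limma adjusted p = 0.360), with 6.74 ± 0.514 against 7.93 ± 0.453 FPKM (SD, n = 3) and no overlap. It was 1 of the 5 without overlap, and 20.1% of all tested genes had no overlap in either direction. Of 12 other negative regulators, 5 were above 0 (median -0.04). An unadjusted p under 0.05, which 15.1% of all tested genes had, was met by 2, near that share. These were 2 phosphatases of blood cells, Ptprc (CD45) at 0.60 (limma adjusted p = 0.0676) and Ptpn6 (SHP-1) at 0.84 (limma adjusted p = 0.122). Without deficient 4, both passed (0.0237 for Ptprc and 0.0204 for Ptpn6). Over all alternatives their adjusted p ran from 0.0200 to 0.225 and from 0.00147 to 0.398. Both lower ends came from the block on replicate number.

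The known targets of the pathways were described list by list, with lists chosen when earlier results of these data were known. All 14 interferon gamma targets were above 0, with a median log2 fold change of 1.03, and 7 were called higher. Of all tested genes, 54.7% were above 0 and 0.979% were called higher. Psmb9 (1.41, adjusted p = 0.00758) and Psmb8 (1.34, adjusted p = 0.00903), subunits of the immunoproteasome, the GTPase Gbp4 (1.64, adjusted p = 0.0120) and the peptide transporter Tap1 (0.97, adjusted p = 0.0160) had the smallest limma p-values. Leaving out single tumours brought the 7 calls to between 2 (without wild type 3) and 11 (without deficient 4), and 2 were called with no filter on low values. There were 3 without deficient 3, 4 without deficient 5, 5 without wild type 2 and 6 without wild type 5. Gbp4 lost its call without wild type 3 (0.0560), and Tap1 without deficient 3 or wild type 3 (0.0688 and 0.0632). Both calls were also lost when low genes were not filtered out (0.0616 for Gbp4 and 0.0608 for Tap1). The order of tumours in the mean of this list, centred on each gene's mean, was that of Socs1, which the list does not hold: deficient 3 (0.73), deficient 5 (0.55), deficient 4 (0.39), wild type 2 (-0.36), wild type 3 (-0.43) and wild type 5 (-0.89). The tumours of each group share the host genotype, so this order is a description and was given no test.

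The 11 tested targets of Stat2 and IRF9 were above 0 (median 0.48), beside 54.7% of all tested genes. Of these 0 passed and 3 had an unadjusted p under 0.05, a limit met by 15.1% of all tested genes. Oas1a, an antiviral synthetase, was at 1.09 (limma adjusted p = 0.169) and Oas2 at 1.06 (limma adjusted p = 0.233). Oas1a passed without wild type 2 (0.0254), and over all alternatives its adjusted p ran from 0.000764, with the block on replicate number, to 0.492. The centred mean of the list was 0.67, 0.44 and -0.27 in deficient 3, 4 and 5, against 0.71, -0.40 and -1.14 in wild type 2, 3 and 5. Wild type 2 therefore held the highest mean, above every deficient tumour. Stat2 itself had the same tumours at its upper end, deficient 3, deficient 4 and wild type 2, and the same 3 at its lower end.

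For the Stat6 and Stat4 lists, the shares over all tested genes are 54.7% above 0 and 0.979% called higher. An unadjusted p under 0.05 with higher values was met by 9.86%, and 11.8% lay higher without overlap. Of 13 tested Stat6 targets 12 were above 0 (median 0.60), beside the value of 0.01 for Stat6. An unadjusted p under 0.05 was met by 8 of them, all higher, and 7 lay higher without overlap. The lectin Clec10a was the 1 gene called higher, with 28.7, 14.6 and 44.4 FPKM in deficient 3, 4 and 5, against 1.96, 0.873 and 4.42 FPKM in wild type 2, 3 and 5 (log2 fold change 3.15, SE 0.46, limma adjusted p = 0.0344). Its call was lost without deficient 3 (0.134), deficient 5 (0.0823), wild type 2 (0.0629) or wild type 3 (0.148), and also when low genes were not filtered out (0.120) and in the voom fit (0.0828). Of 7 tested Stat4 targets 7 were above 0 (median 0.54) and 3 were called higher, namely Prf1 (perforin, 1.30, limma adjusted p = 0.0119), Gzmb (granzyme B, 1.36, limma adjusted p = 0.0344) and Ifng, which is also counted among the ligands. Prf1 lost its call without wild type 3 (0.0560), and Gzmb without each tumour other than deficient 4 (0.0565 to 0.135), with no filter (0.120), with quantile normalization (0.0509) and in the voom fit (0.0631). Prf1 had a log2 fold change of 2.06 at a pseudocount of 0.1 and 2.21 with voom. Prf1 and Gzmb also stand in the T and NK cell list, whose sum was 78.0 to 112.1 FPKM in deficient and 34.8 to 49.5 FPKM in wild-type tumours.

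Of 18 Stat3 targets 13 were above 0, beside 54.7% of all tested genes, and the median of 0.08 was near that of all genes. Among all tested genes 0.979% were called higher. The acute-phase gene Saa3 was the 1 called higher, with 74.6, 47.3 and 213.9 FPKM in deficient 3, 4 and 5, against 6.29, 6.24 and 15.2 FPKM in wild type 2, 3 and 5 (log2 fold change 3.28, SE 0.54, limma adjusted p = 0.0432). Its call was lost without each tumour other than deficient 4 (0.0596 to 0.196), with no filter (0.148), equal column totals (0.0523) or quantile normalization (0.0501), and in the voom fit (0.126). Of 11 tested Stat5 targets 7 were above 0 (median 0.04) and 0 passed. An unadjusted p under 0.05, which 15.1% of all tested genes had, was met by 2, near that share. These 2 lay below 0: the growth factor Igf1 at -0.61 (limma adjusted p = 0.273) and the survival gene Bcl2 at -0.23 (limma adjusted p = 0.306). Igf1 passed without wild type 2 (0.0497), and over all alternatives its adjusted p ran from 0.0173, with the block on replicate number, to 0.644. Cish, the classical Stat5 target, is not in this list and was at 0.56.

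**Figure D3:**
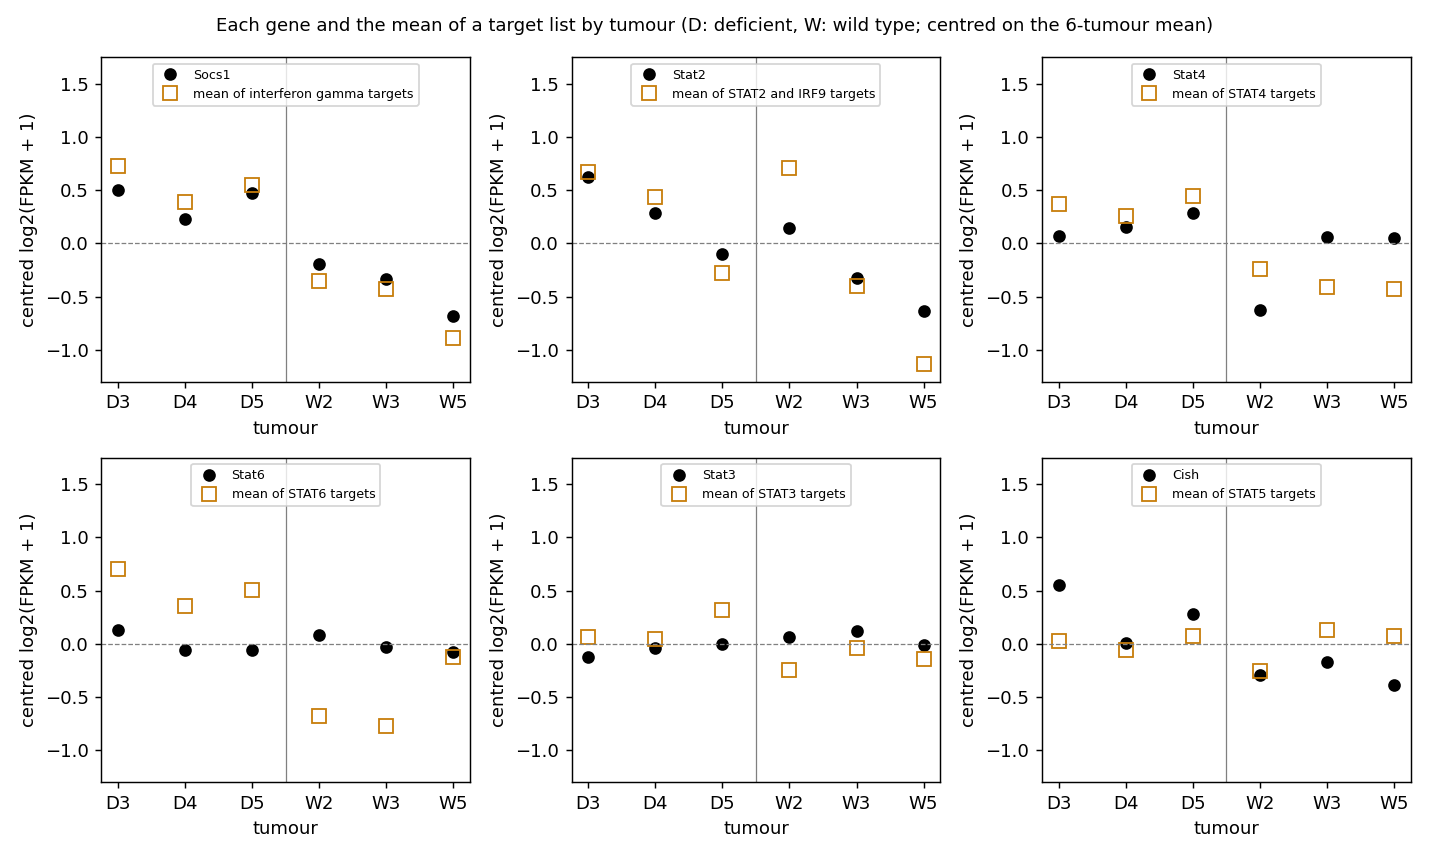
Centred log2(FPKM + 1) (vertical axes) in each tumour for a gene (black circles) and for the mean of a list of known targets (open squares), with deficient tumours D3, D4 and D5 left of wild-type tumours W2, W3 and W5. Socs1 and the interferon gamma targets share 1 order of tumours. In W2 the mean of the Stat2 targets is the highest (0.71), while Stat2 is at 0.15, below D3 and D4. Stat6 stays near 0 while the mean of its targets is 0.36 to 0.71 in deficient and -0.77 to -0.12 in wild-type tumours.

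**Figure D4:**
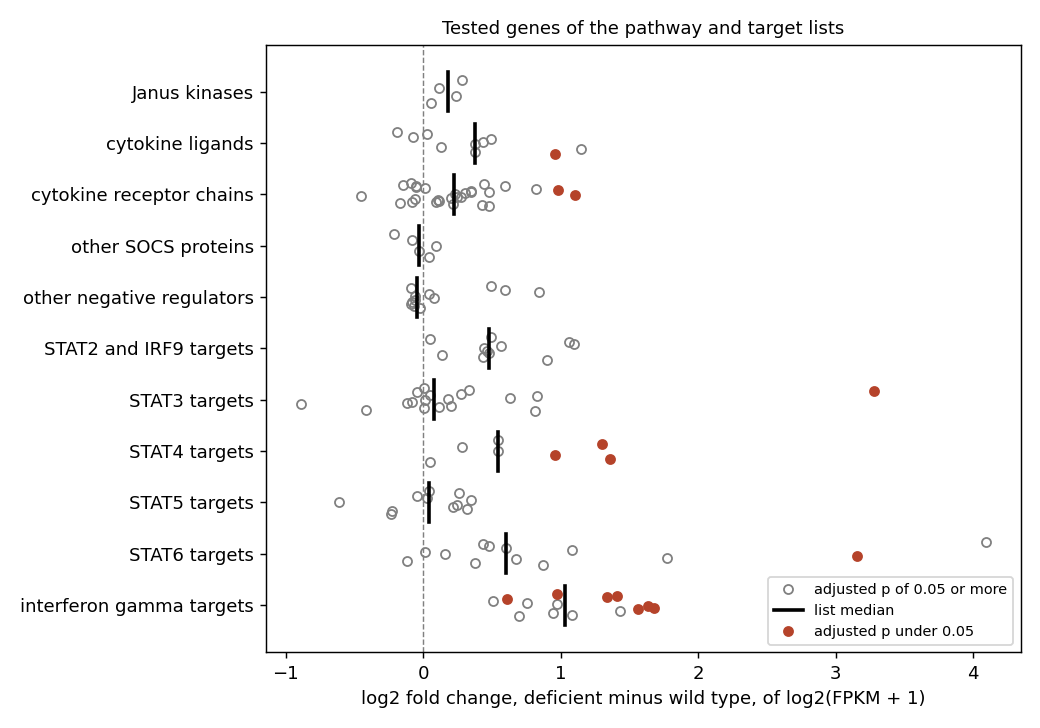
Log2 fold changes (horizontal axis, deficient minus wild type) of the tested genes of each list (rows), with calls at an adjusted p under 0.05 filled in red and list medians as black bars. The interferon gamma list holds 7 calls among 14 genes, and the medians of the Stat3 and Stat5 targets lie near 0. The lists were chosen with earlier results of these data known.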

How the data were processed

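Whole-tumour RNA (TRIzol) was read as 150 bp pairs, per the labels' protocols. HISAT2, HTSeq and R 3.2.0 are listed in the submitters' processing notes with no role given. The authors deposited 1 table with a value per gene and tumour, taken to be FPKM from the values: in 95.3% of genes they were whole multiples of a step (tolerance 0.0001), and recovered fragment totals matched the libraries' relative depth to 0.189% (coefficient of variation), whereas column totals varied by 3.46%. The genome build is not given in the sources used here. Linear models on log2(FPKM + 1) with a group term were fitted to all 12257 genes with a mean of at least 0.5 FPKM, with limma 3.58.1 in R 4.3.3, a variance trend and two-sided Benjamini-Hochberg adjusted p-values. An adjusted p under 0.05 was a call. The fit was tested on simulated data in 5 runs with 200 changed genes each. It recovered 45.6% of 1.5-fold and 80.4% of 2-fold changes, and 5.4% of calls were false. Changes of these sizes can therefore be missed. Alternatives were other pseudocounts, filters and scalings, a block, leaving out each tumour and limma's voom on recovered fragments. Members, lists and tests were chosen with earlier results of these data known. All 9 members were named, and in each list the called genes (at most 4) or the 2 with the smallest p. Counting errors cover counting only.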

Additional observations from a re-analysis of the deposited data

How the results depend on the processing

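Over all genes, the reported counts were 120 higher and 28 lower genes. Leaving out 1 tumour gave 7 to 270 higher and 3 to 66 lower genes, and 0 to 1 of the 9. With no filter on low values the counts were 10 and 8, with equal column totals 43 and 18, with quantile normalization 74 higher, and at an adjusted p under 0.1 they were 245 and 63, with 1 of the 9 (Socs1, 0.80). A voom fit to recovered fragments, added after the data were seen, called 66 higher and 25 lower genes. With the replicate number as a block, which rests on numbers 3 and 5 alone, 633 higher and 354 lower genes were called, with 3 of the 9: Stat2 (0.74), Socs1 (0.997) and Cish (0.69). Same-numbered tumours did not deviate together (correlation across genes -0.090 for number 3 and -0.0085 for number 5), and the labels pair no tumours. Stat6 turned negative with equal totals (-0.039), median-ratio scaling (-0.012) and quantile normalization (-0.042). Leaving out 1 tumour gave Stat6 -0.050 to 0.059 (below 0 without deficient 3 or wild type 5), Stat5b -0.12 to 0.041 (above 0 without deficient 4 or wild type 3) and Socs1 0.66 to 0.91, and the block gave Stat5b 0.031. The other 7 genes kept their direction in all 17 alternatives. The cause of these changes was not tested.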

Other observations

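Ratios within a tumour, chosen after the values were seen and given no test, separated the groups for some pairs of these genes. The ratio of Stat5b to Stat5a was 1.21, 1.15 and 1.01 in deficient 3, 4 and 5, against 1.26, 1.41 and 1.48 in wild type 2, 3 and 5. The values were closer to equal in every deficient tumour, but deficient 3 and wild type 2 barely differed. Their ratios rest on 1310 and 1197 Stat5a fragments, and reads may be split between the 2 genes. Socs1 reached 0.138, 0.105 and 0.124 of the level of Stat3 in deficient 3, 4 and 5, against 0.0698, 0.0595 and 0.0480 in wild type 2, 3 and 5. Cish reached 0.393, 0.305 and 0.344 of the level of Stat5b in deficient tumours, against 0.191, 0.197 and 0.181 in wild-type tumours, a narrow wild-type range. Cish relative to Stat5a did not overlap either. Socs1 and Cish had no overlap by themselves, so the separation of these ratios largely repeats theirs and is no separate result. Socs3 relative to Stat3 overlapped between the groups (0.681 ± 0.149 and 0.519 ± 0.219, SD, n = 3), as did Socs1 relative to Stat2 (0.559 ± 0.170 and 0.427 ± 0.0504). Stat3 relative to Stat6 and Socs3 relative to Socs1 overlapped too.

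Among 8087 named genes with a mean of at least 5 FPKM, the patterns over the 6 tumours most like that of Socs1 were those of the GTPase Gbp3 (Pearson r 0.992), Clptm1l (0.991) and the Fc receptor Fcgr1 (0.991). Those most like Stat2 were Tufm (0.992), Slfn8 (0.990) and Herc6 (0.989). Of the 8087 genes, 92 exceeded 0.95 with Socs1 and 40 with Stat2. These values are a description of 6 tumours that fall into 2 groups.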
